A study of Bos taurus with 147 samples.

Results

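The last step of muscle development examined in these data runs from day 195 of gestation (d 195) to birth. It was measured on 6 of the 25 arrays that compare fetal and newborn muscle, out of 147 samples in the series. The 6 arrays were those whose labels pair a d 195 sample with a newborn sample of the same sire breed, 3 from Piedmontese-sired and 3 from Wagyu-sired animals. Each array carried a d 195 sample in one dye and a newborn sample in the other, and the values are log2 ratios of birth over d 195 after each array was centred on its median. Values above 0 therefore mean a higher level at birth relative to the median array element, and a value of 1 is a 2-fold difference.

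The study followed gene expression in the longissimus muscle, a back muscle, of cattle fetuses and newborn calves. All animals had Hereford dams. PH animals were sired by Piedmontese bulls homozygous for a missense mutation of the myostatin gene (GDF8), a breed of heavy muscling, and WH animals by Wagyu bulls, a breed of strong marbling. The labels name no treatment. Fetuses were recovered by caesarean section, and newborn calves were euthanased within a day after birth. The study states that its newborn values may also reflect birth trauma, and the part of this was not tested. A single bull sired all 3 Piedmontese-sired fetuses of d 195, twins among them. By contrast, 3 bulls each sired the Wagyu-sired fetuses of d 195 and the newborn calves of either breed. Sire and stage therefore cannot be told apart in the Piedmontese-sired step. All newborn calves were female, whereas the d 195 fetuses of each sire breed included males. Sex and stage were thus partly confounded in both sire breeds, and the part of sex was not tested. RNA was amplified before labelling. The array held cDNA from muscle and fat of an adult steer, so genes that only fetal muscle expresses could be missing from it.

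The Piedmontese-sired arrays had d 195 in the Cy5 dye and newborn in Cy3, and the Wagyu-sired arrays ran the other way. The direction of the ratio, Cy5 over Cy3, is likely rather than stated, and rests on the dyes in the labels and the drawn design. A dye effect cancels in the mean of both sire breeds, and all results below for the shared step are that mean. For a single sire breed, and for the difference between them, the dye effect was estimated from the closed loop of the 25 arrays, and fitted values of a sire breed differ slightly from the mean of its arrays for that reason. The sources used here do not tie array numbers to animals. Each animal was on at least 2 arrays and the fit had no term for the animal, so the arrays are not independent. The p-values measure the spread between arrays and can overstate the certainty between animals.

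Between d 195 and birth a bovine fetus does most of its growth and prepares to stand, breathe air and live through gaps in nutrient supply. Muscle fibres have formed by then and enlarge, the sarcomere proteins shift from fetal to adult forms, and the connective tissue around the fibres matures. Fetal cortisol rises towards delivery and is known for inducing genes of fuel use in many tissues.

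The 6 arrays had between 19845 and 20716 usable array elements of 21168. Ratios on different arrays correlated between 0.59 and 0.73 within a sire breed and between 0.49 and 0.71 across sire breeds, over array elements, which are not independent replicates. The spread of the ratios differed between arrays, with 17.3% to 26.8% of elements more than 2-fold from the median on the Piedmontese-sired arrays and 35.8%, 31.8% and 21.7% on Wagyu-sired arrays 1, 2 and 3. Wagyu-sired array 3 was in this respect closer to the Piedmontese-sired arrays than to the other Wagyu-sired ones. The deposited ratios carry no level of a single sample, so the tissue could not be checked from them. Which genes gave ratios depends on the cDNA and the gene names of the array. Of 76 listed genes of the sarcomere, the contractile unit of skeletal muscle, 39 did, as did 7 of 8 adipocyte markers. None of the markers of blood, nerve, cartilage and epidermis were among the named genes tested.

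Of 16659 features tested, 8744 (52.5%) differed between d 195 and birth in the mean of both sire breeds (limma, adjusted p under 0.05), 4445 (26.7%) higher and 4299 (25.8%) lower at birth. Of the 975 features that carry 1 gene name, 501 (51.4%) differed, 204 (20.9%) higher and 297 (30.5%) lower. The other 15684 features had no name here. The median named gene read -0.11, and all but the lowest and highest 5% lay between -1.29 and 1.21, so each list below is read against a background that leans downwards. A list whose counts lie near the shares of 20.9% higher and 30.5% lower is not read as a result about its members. All 6 arrays lay above 0 for 134 of 943 named genes with a value on each (14.2%, against 19.7% of all such features) and below 0 for 222 (23.5%, against 21.1%).

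The genes that rose most included FBXO40, PFKFB3 and PDK4, and those that fell most GPC3, EGFL7 and COL3A1. The 15 largest rises among named genes were 3.75-fold to 12.2-fold, and the 15 largest falls 3.76-fold to 12.7-fold. All 30 lay on the same side of 0 on all 6 arrays and passed the threshold in each sire breed alone.

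FBXO40, a muscle-specific subunit of a ubiquitin ligase, rose most. Its log2 ratios were 3.19, 3.42 and 4.17 on the Piedmontese-sired arrays and 5.21, 3.80 and 1.89 on the Wagyu-sired arrays. The arrays of the sire breeds overlapped, the highest and the lowest value both coming from Wagyu-sired samples. The fitted rise was 3.61 ± 0.29 (log2, SE), a 12.2-fold increase, with a limma adjusted p of 3.66e-09. PFKFB3, which makes the activator of phosphofructokinase and so speeds glycolysis, read 3.22, 2.54 and 4.05 in Piedmontese-sired and 4.46, 3.49 and 1.89 in Wagyu-sired samples. The groups again overlapped, and the rise was 3.27 ± 0.27, or 9.67-fold (limma adjusted p = 5.48e-09).

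PDK4, the kinase that shuts down pyruvate dehydrogenase and spares glucose, read 2.51, 1.92 and 3.26 in Piedmontese-sired and 4.33, 2.38 and 1.85 in Wagyu-sired samples. Wagyu-sired array 1 stood highest, and the other 5 values were mixed. The rise was 2.71 ± 0.22, or 6.54-fold (limma adjusted p = 3.46e-09). TXNIP, which binds thioredoxin and restrains glucose uptake, had values of 2.48, 1.75 and 2.63 in Piedmontese-sired and 3.67, 2.28 and 2.19 in Wagyu-sired samples, which overlapped. It rose 5.66-fold, by 2.50 ± 0.16. SESN1, a sestrin that damps growth signalling, rose by 2.10 ± 0.30, although Wagyu-sired array 3 read only 0.37 against 1.71 to 3.40 on the other 5 arrays.

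Mitochondrial genes followed. COQ8A, needed to make coenzyme Q, read 1.63, 2.91 and 3.11 in Piedmontese-sired and 4.53, 3.29 and 2.07 in Wagyu-sired samples. The lowest value was Piedmontese-sired and the highest Wagyu-sired, with overlap between them, and the rise was 2.92 ± 0.23. CKMT2, the creatine kinase of muscle mitochondria, read 1.91, 2.15 and 3.86 in Piedmontese-sired and 4.22, 1.32 and 1.52 in Wagyu-sired samples. One array of each sire breed stood well above the other 4 arrays, and the fitted rise was 2.50 ± 0.28. CYC1, a cytochrome of complex III, rose by 1.96 ± 0.20, and GOT2, the mitochondrial aspartate aminotransferase, by 1.91 ± 0.24. Further strong rises included those of MAP3K15, a kinase of the stress pathways (4.88-fold), IVNS1ABP, a kelch protein (3.97-fold, with Wagyu-sired array 3 at only 0.24), and LOC514507 (7.49-fold) and LOC787122 (3.78-fold), which have no further name here.

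**Figure D1:**
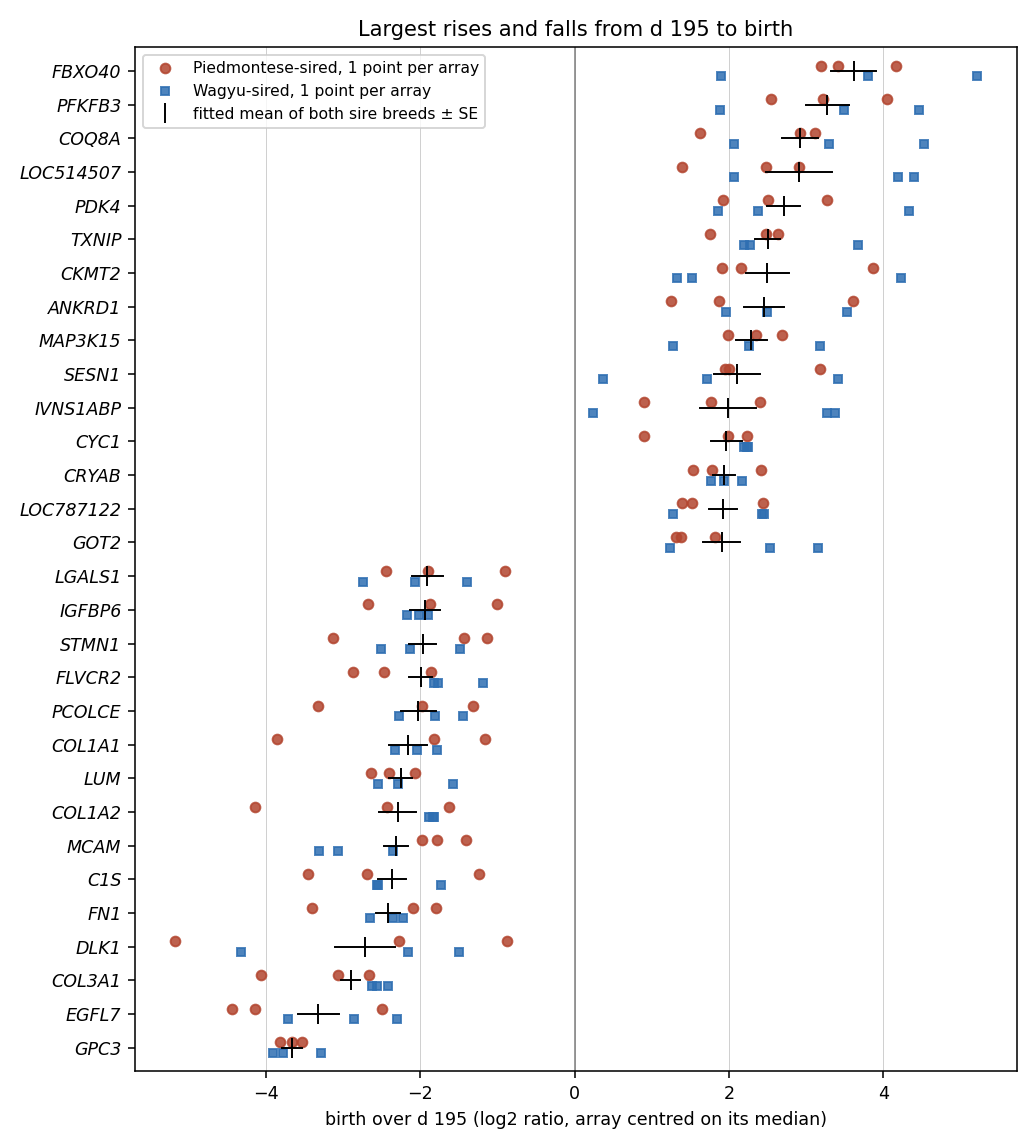
Log2 ratio of birth over d 195 (horizontal axis) for the 15 strongest rises and the 15 strongest falls among named genes, with 1 red circle per Piedmontese-sired array, 1 blue square per Wagyu-sired array and a black cross for the fitted mean of both sire breeds ± SE. All points of the upper genes lie above 0 and all points of the lower genes below 0, and the values of the sire breeds overlap for most genes.

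Among the strongest falls, GPC3, a cell surface proteoglycan that modulates growth factor signalling, read -3.82, -3.53 and -3.66 in Piedmontese-sired and -3.90, -3.78 and -3.29 in Wagyu-sired samples. The 6 values lay close together and the sire breeds overlapped. GPC3 fell by 3.66 ± 0.13 on the log2 scale, to a level 12.7-fold lower at birth (limma adjusted p = 1.35e-13). COL3A1, the collagen of fine reticular fibres, read -2.67, -3.07 and -4.07 in Piedmontese-sired and -2.63, -2.42 and -2.56 in Wagyu-sired samples. All 3 Piedmontese-sired values were the lower ones, but the difference between the sire breeds, -0.57 ± 0.21, did not pass the test (limma adjusted p = 0.204). The shared fall was 7.48-fold.

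EGFL7, a factor secreted by endothelial cells, read -2.49, -4.14 and -4.44 in Piedmontese-sired and -3.71, -2.85 and -2.30 in Wagyu-sired samples, with overlap between the sire breeds. It fell by 3.32 ± 0.26 on the log2 scale. DLK1, an imprinted Notch-related protein of fetal muscle and preadipocytes, varied most among the strong falls, with -0.87, -2.27 and -5.18 in Piedmontese-sired and -4.32, -1.50 and -2.16 in Wagyu-sired samples. Array 3 of the one and array 1 of the other stood lowest, and the fitted change was -2.72 ± 0.39, or 6.58-fold lower at birth. C1S, a protease of the complement cascade, LGALS1, a galectin, and FLVCR2, a membrane transporter, were 5.17-fold, 3.76-fold and 3.99-fold lower.

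The fibrous matrix fell together. Of 7 collagen genes measured, 5 fell, none rose and the list median was -1.35 against -0.11 over all named genes. COL1A1 and COL1A2, the chains of the main fibrillar collagen, were 4.48-fold and 4.90-fold lower at birth, and COL12A1, a fibril-associated collagen, also fell (-1.35). COL5A3 and the basement membrane chain COL4A1 read -0.13 and -0.06 and did not pass. Of 25 other matrix genes, 17 fell and 1 rose, with a median of -0.86. The falls included the adhesion glycoprotein FN1 (-2.42), the small proteoglycan LUM (-2.26), PCOLCE, which speeds procollagen processing (-2.03), and the collagen-binding SPARC (-1.85). LOX, the enzyme that cross-links collagen, rose by 0.39 ± 0.13 and was the exception, although that call was lost in 8 of 20 alternative fits. Of 9 matrix proteases and inhibitors, 4 fell and none rose, among them the serine protease HTRA1 (-1.54) and the inhibitors TIMP2 (-1.04) and TIMP1 (-0.95). Both inhibitors are also counted among the 25 other matrix genes, so the 2 counts are not separate. In a bulk tissue, fewer cells of a type and less RNA per cell cannot be told apart.

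Cytoskeletal genes of non-muscle and young cells also fell, 10 of 13 with none rising and a median of -1.03. VIM, the intermediate filament of mesenchymal cells and immature fibres, read -2.13, -1.85 and -2.16 in Piedmontese-sired and -1.81, -1.46 and -1.83 in Wagyu-sired samples. The highest Piedmontese-sired value lay just below the lowest Wagyu-sired value, and the difference, -0.27, did not pass (limma adjusted p = 0.396). VIM was 3.67-fold lower at birth. STMN1, which destabilises microtubules, fell by 1.97, TUBA1A, an alpha tubulin, fell by 1.61, and the cytoplasmic actin gene ACTG1 fell by 1.36 on the log2 scale. ACTA1, the actin of the adult sarcomere, moved the other way, by 0.78 ± 0.18. It read -0.12 on Piedmontese-sired array 2 and did not pass in Piedmontese-sired muscle alone (limma adjusted p = 0.0713). The shared call of ACTA1 was lost with all arrays scaled to the same spread.

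Markers of other cells were few on this array. Of the endothelial markers EGFL7 and EMCN (-0.86) fell and PLVAP read -0.26 and did not pass. Of 4 markers of smooth muscle and pericytes only the adhesion molecule MCAM (-2.32) fell, whereas the contractile markers ACTA2 and CNN1 read -0.12 and -0.09. The class II gene BOLA-DRB3 (-0.84) and the lysosomal protease CTSS (-0.72) fell among 5 immune markers, and S100A8, a neutrophil gene, rose by 0.33, a call lost in 10 of 20 alternative fits. Of 7 adipocyte markers none fell and the hormone-sensitive lipase gene LIPE rose by 0.76. FABP4, PLIN1, ADIPOQ, LEP, CIDEC and CFD, which define fat cells, lay between -0.13 and 0.19. The part of these cells in the results above was not tested.

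**Figure D2:**
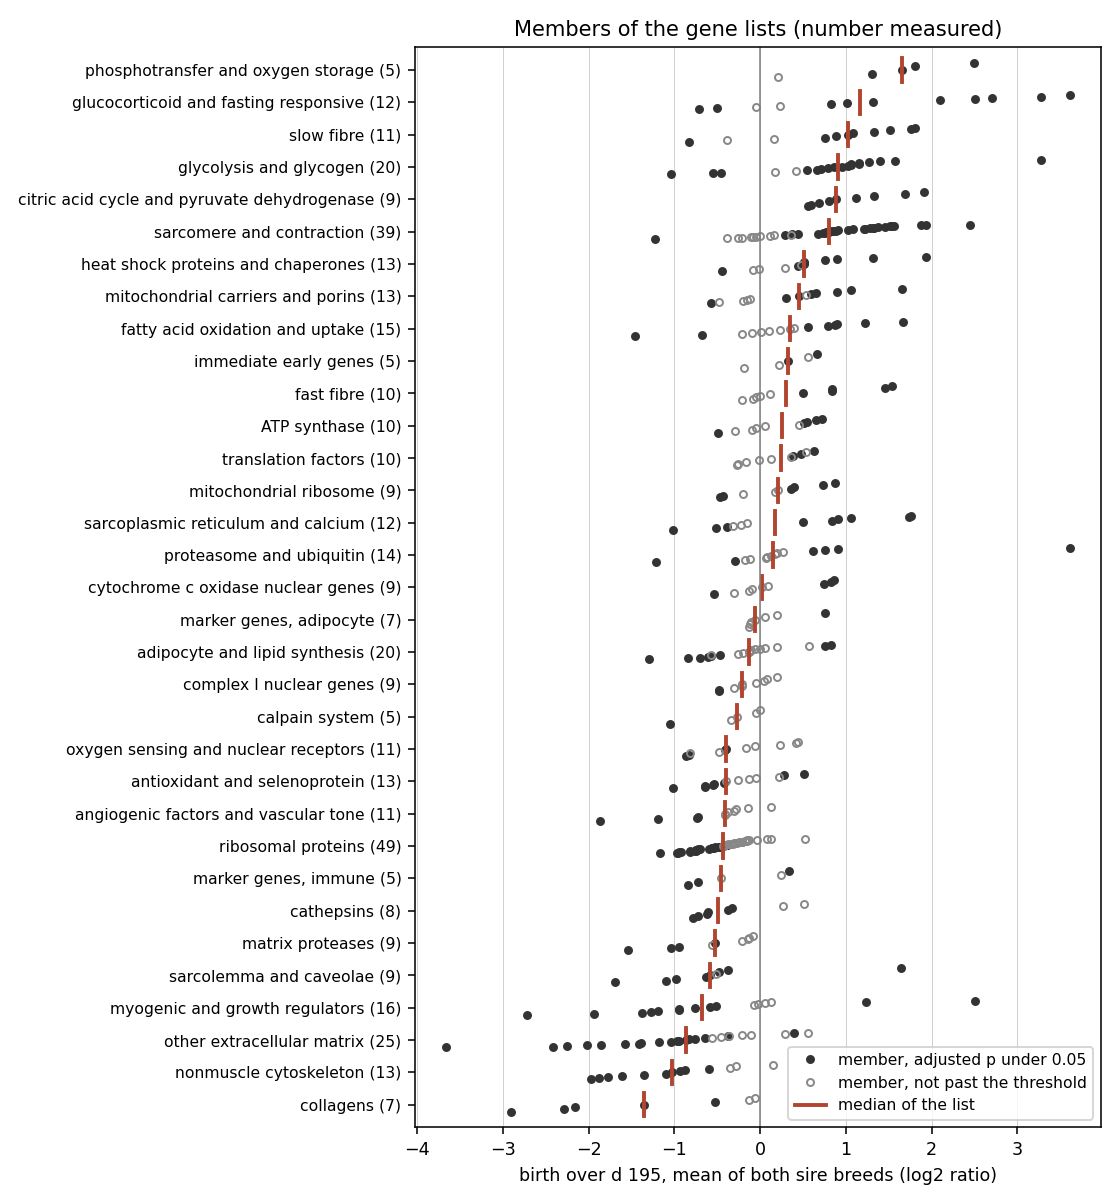
Log2 ratio of birth over d 195 in the mean of both sire breeds (horizontal axis) for each measured member of the gene lists, sorted by list median (red bars), with the number measured in brackets. Filled points passed an adjusted p under 0.05 and open grey circles did not, and medians run from -1.35 for the collagens to 1.65 for phosphotransfer and oxygen storage.

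Genes of the contractile apparatus rose. Of 39 sarcomere genes measured, 28 rose and 1 fell, with a median of 0.80. MYOT, a protein of the Z-disc, read 1.33, 1.77 and 1.84 in Piedmontese-sired and 2.77, 2.10 and 1.45 in Wagyu-sired samples, with overlap, and was 3.67-fold higher at birth. Its partner LDB3 rose by 1.56 ± 0.13. The stress-responsive genes ANKRD1, which binds titin, and CRYAB, a small heat shock protein of the Z-disc, were 5.46-fold and 3.82-fold higher. MYOZ3, a calsarcin, was the exception. It fell by 1.23 ± 0.22 on the log2 scale, whereas the related MYOZ1 rose by 1.54 ± 0.16.

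Slow and fast fibre genes were counted apart. Of 11 slow fibre genes 8 rose and 1 fell, with a median of 1.03. TNNT1, the slow troponin T, read 1.44, 1.44 and 0.96 in Piedmontese-sired and 0.87, 0.49 and 0.95 in Wagyu-sired samples. The lowest Piedmontese-sired value lay just above the highest Wagyu-sired one, and the fitted difference of 0.46 did not pass (limma adjusted p = 0.224). TPM3, the slow tropomyosin, rose by 1.52, ATP2A2, the slow calcium pump, rose by 1.76 with Wagyu-sired array 3 at -0.06 and the other arrays between 1.84 and 2.59, and MB, the oxygen store myoglobin, was 3.49-fold higher. CA3, the carbonic anhydrase of slow fibres, fell by 0.83. Of 10 fast fibre genes 5 rose and none fell, with a median of 0.31. MYH1, a fast myosin heavy chain, rose by 1.45 ± 0.18, while the fast light chains MYL1 and MYL11 and the fast troponin I gene TNNI2 lay between -0.21 and -0.04 and did not pass.

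Calcium handling was mixed, with 6 of 12 genes higher and 3 lower. PLN, the inhibitor of the slow calcium pump, read 0.72, 1.15 and 0.70 in Piedmontese-sired and 3.58, 2.05 and 2.19 in Wagyu-sired samples. The sire breeds did not overlap. Its difference of -1.67 ± 0.43 had an unadjusted p of 0.000949 and a limma adjusted p of 0.128. The fast pump ATP2A1 rose by 0.84 ± 0.13 in the mean of both sire breeds. At the sarcolemma, 7 of 9 genes fell, led by CAV3 (-1.69), the caveolin of muscle, and UTRN (-1.10), the fetal relative of dystrophin. With all arrays scaled to the same spread 3 of the 9 fell. BIN1, which shapes the transverse tubules, rose by 1.64 ± 0.19.

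Genes of glycolysis and glycogen mostly rose, with 15 of 20 genes higher, 3 lower and a median of 0.91. Within this list the forms of an enzyme parted. The muscle enolase ENO3 rose by 0.86 and the general enolase ENO1 fell by 0.55, and the muscle form of lactate dehydrogenase, LDHA, rose by 1.06 while the heart form LDHB fell by 0.45. The same was seen for the mitochondrial ADP/ATP carriers, where SLC25A4, the muscle and heart form, rose by 1.65 ± 0.19 and SLC25A6 fell by 0.58 ± 0.13. The third gene to fall was PPP1R3C, which targets a phosphatase to glycogen (-1.04). GAPDH rose by 1.40 ± 0.25 but read -0.38 on Piedmontese-sired array 2, which also gave the lowest Piedmontese-sired value for CKM, the muscle creatine kinase, 0.04 against 1.29 and 1.43.

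All 9 genes of the list for the citric acid cycle and pyruvate dehydrogenase, which includes the aminotransferase GOT2, rose, with a median of 0.89. This held with each array left out in turn, and 8 of the 9 rose with all arrays scaled to the same spread. DLAT, a subunit of pyruvate dehydrogenase, read 1.25, 1.15 and 1.88 in Piedmontese-sired and 2.96, 1.73 and 1.15 in Wagyu-sired samples, which overlapped, and rose by 1.69 ± 0.19. MDH2, malate dehydrogenase, rose by 1.33, and SDHD, an anchor of succinate dehydrogenase, by 0.59. The respiratory chain did not move in the same way. Of its 32 genes, 9 rose and 5 fell. None of 9 nuclear genes of complex I rose and NDUFC2 and NDUFV3 fell, the call of NDUFC2 being lost in 7 of 20 alternative fits. Of 9 cytochrome c oxidase genes COX5A, COX7A2 and COX7B rose and the copper chaperone COX17 fell, but with all arrays scaled to the same spread 1 rose and none fell, and the calls of COX7A2 and COX5A were lost in 7 and 5 of 20 alternative fits. Of 10 ATP synthase genes 4 rose, the alpha subunit gene ATP5F1A by 0.73, and ATP5MG fell.

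Fat metabolism was split. Of 15 genes of fatty acid uptake and oxidation 6 rose and 2 fell. PHYH, which degrades branched fatty acids, rose by 1.66 ± 0.18 and HADHB, a subunit of the trifunctional protein, by 1.22 ± 0.23. DECR1, needed for unsaturated fatty acids, fell by 1.47 on the log2 scale, and Piedmontese-sired array 3 read -3.32 against -1.53 to -0.58 on the other 5 arrays. Of 20 genes of adipocytes and lipid synthesis 6 fell and 2 rose, beside 30.5% of all named genes that fell and 20.9% that rose. The median of this list, -0.13, was near the -0.11 of all named genes. ACACA, the committed enzyme of fatty acid synthesis, had nearly the same value on 5 arrays, -1.25, -1.37 and -1.37 in Piedmontese-sired and -1.39, -1.37 and -1.04 in Wagyu-sired samples, and the last array was slightly higher. ACACA was 2.46-fold lower at birth. Without Piedmontese-sired array 1 the number of falls in this list was 3.

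Of 12 genes listed here as responsive to glucocorticoids or fasting 8 rose and 2 fell, with a median of 1.17. Whether each member responds to these was not tested. The list was chosen with earlier results of these data known, so its count and median are a description. FBXO40, PFKFB3, PDK4, TXNIP and SESN1, all among the 15 largest rises, belong to this list. So does DDIT4, an inhibitor of mTOR signalling, which rose by 1.32 ± 0.14. CDKN1A, a cell cycle inhibitor, fell by 0.72, and ANGPTL4, an inhibitor of lipoprotein lipase, fell by 0.51 on the log2 scale. The glucocorticoid receptor gene NR3C1 itself fell by 0.83 ± 0.19, although Wagyu-sired array 1 read 0.31. THRA, a thyroid hormone receptor, fell by 0.86 ± 0.12. Of 13 heat shock proteins and chaperones 8 rose and 1 fell, led after CRYAB by the chaperonin subunit CCT6A (1.32), and without Wagyu-sired array 1 the rises numbered 5.

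Regulators of myogenesis and growth mostly fell, 10 of 16 with 2 rising and a median of -0.67. MYOG, which drives the differentiation of myoblasts, read -0.96, -1.50 and -1.53 in Piedmontese-sired and -1.66, -1.06 and -0.96 in Wagyu-sired samples. The sire breeds overlapped, and MYOG was 2.43-fold lower at birth. MYF6, the myogenic factor of mature fibres, rose by 1.24 ± 0.33 with a wide range from 0.04 to 2.73. The binding proteins IGFBP6, IGFBP5 and IGFBP4 fell by 1.94, 1.38 and 1.19, and IGF2, the fetal growth factor, fell by 0.76 on the log2 scale. TXNIP, which this list shares, was the other gene to rise.

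Of 49 ribosomal protein genes 27 fell and none rose, with a median of -0.43. RPL22 fell by 1.17 and RPS4X by 0.77 on the log2 scale. The arrays did not share this fall equally. The list median was -0.25, -0.22 and -0.24 on the Piedmontese-sired arrays and -1.06, -0.98 and -0.18 on the Wagyu-sired arrays. Wagyu-sired arrays 1 and 2 stood apart, and Wagyu-sired array 3 lay beside the Piedmontese-sired arrays. With all arrays scaled to the same spread, 13 of the 49 genes fell.

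Among smaller groups, of 8 cathepsins 6 fell, CTSB by 0.78, and the number was 3 when Piedmontese-sired array 1 or 3 or Wagyu-sired array 3 was left out. The calpain CAPN2 fell by 1.05, while CAPN1, CAPN3, CAPNS1 and the inhibitor gene CAST did not pass. Of 13 antioxidant genes 6 fell, with SELENOW, a selenoprotein abundant in muscle, at -1.02, and SOD2 and FTH1 rose, the latter call being lost in 10 of 20 alternative fits. Of 14 proteasome and ubiquitin genes 4 rose and 2 fell. Of 11 angiogenic and vasoactive genes 4 fell and none rose, led by ANGPTL2 (-1.87) and the growth factor gene PDGFB (-1.20). Of all named genes 30.5% fell, and with arrays scaled to the same spread 3 of the 11 fell. The lists that the study drew from these same samples, and that are therefore no independent evidence of direction, had 29 of 30 rising genes higher and 17 of 17 falling genes lower at birth.

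The change from d 195 to birth was compared with the step before it, from d 135 to d 195. Both steps share the d 195 samples, so that their values enter both steps with opposite sign. In the step before, 2804 of 16659 features (16.8%) passed the threshold, 10.6% higher and 6.19% lower. Of 975 named genes 144 (14.8%) passed, 7.59% higher and 7.18% lower. The size of the step differed from the one before for 5781 features (34.7%, or 17.8% more positive and 17.0% more negative), among them 305 named genes (31.3%), 125 (12.8%) with a more positive and 180 (18.5%) with a more negative change. The 30 strongest genes of the last step were among them, which their choice by that step largely fixes, and 3 of the rises and 4 of the falls had passed in the step before.

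The values of both steps are given side by side for some of the strongest genes, as a description, since these were chosen for the last step. FBXO40 read 0.09 and then 3.61, PFKFB3 -0.16 and then 3.27, and PDK4 -0.05 and then 2.71. None of the 12 genes listed as responsive to glucocorticoids or fasting rose in the step before and 1 fell, and for 7 the later step was more positive. That list was chosen with earlier results known and shares FBXO40, PFKFB3, PDK4, TXNIP and SESN1 with the 15 largest rises. Its contrast between the steps is therefore also a description. In the citric acid cycle list, which includes GOT2, none passed in the step before, with a median of 0.12. For 8 of 9 the later step was more positive. DLK1 read 0.07 before and -2.72 after, EGFL7 -0.27 and -3.32, and MCAM -0.05 and -2.32.

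Fast fibre genes had the opposite order. Of the 10, 9 rose from d 135 to d 195 with a median of 0.75 and all 10 rose from d 60 to d 135 with a median of 0.82, when 31.0% of all features passed the threshold and 13.5% of named genes rose and 17.9% fell. At d 60 the muscle could not yet be told apart from its surroundings and skin was harder to remove, per the study's description, and the part of this in the values was not tested. For 6 of the 10 the last step was more negative than the one before and for 1 more positive. Of the 11 slow fibre genes 4 rose in the step before, and for 6 the last step was more positive and for none more negative. ENO3 rose by 1.27 before and 0.86 after, whereas TPM3 read 0.12 before and rose by 1.52 after. SPP1, a secreted phosphoprotein, fell by 1.94 from d 135 to d 195 and by 0.64 in the last step.

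**Figure D3:**
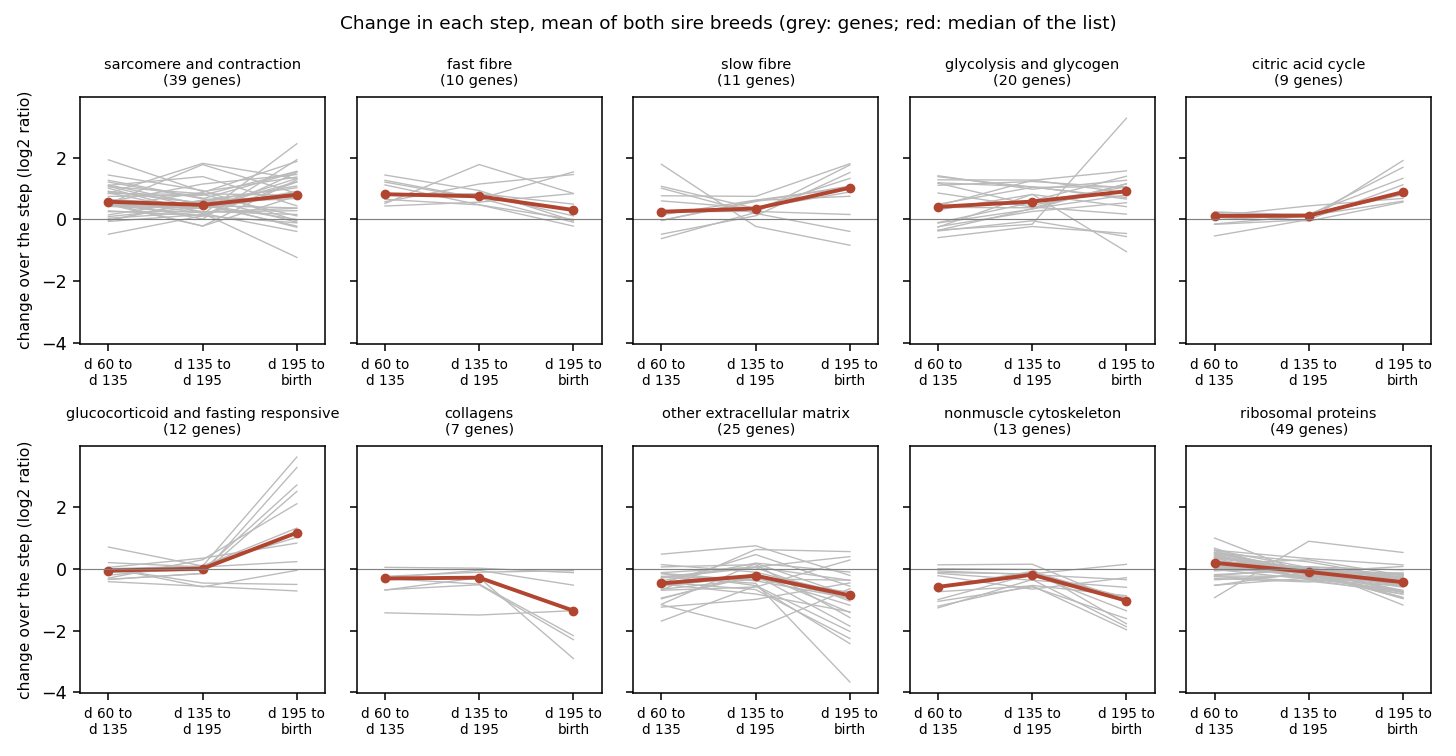
Change in each of the 3 steps of development (horizontal axis) in log2 ratio, mean of both sire breeds, for 10 gene lists, with grey lines for genes and red points for the list median. The citric acid cycle and glucocorticoid or fasting responsive lists stay near 0 until d 195 and then rise. Collagens fall mainly after d 195, and the fast fibre median declines from 0.82 to 0.31. The lists were chosen with earlier results of these data known.

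The step was also examined in each sire breed alone. In Piedmontese-sired muscle 6609 features (39.7%) passed, 20.7% higher and 18.9% lower. Of the named genes 372 (38.2%) passed, 146 higher and 226 lower (23.2%). In Wagyu-sired muscle 7436 features (44.6%) passed, 21.7% higher and 22.9% lower. Of the named genes 447 (45.8%) passed, 201 higher (20.6%) and 246 lower (25.2%). Of the named genes 274 (28.1%) passed in each sire breed in the same direction, as did 28.3% of all features, and 3 (0.308%) in opposite directions (0.09% of all features). The median size of the change over named genes was 0.40 in Piedmontese-sired and 0.48 in Wagyu-sired muscle on the log2 scale, and it was larger in Wagyu-sired muscle for 542 of 975 genes. The part of the wider spread on Wagyu-sired arrays 1 and 2 in this was not tested.

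**Figure D4:**
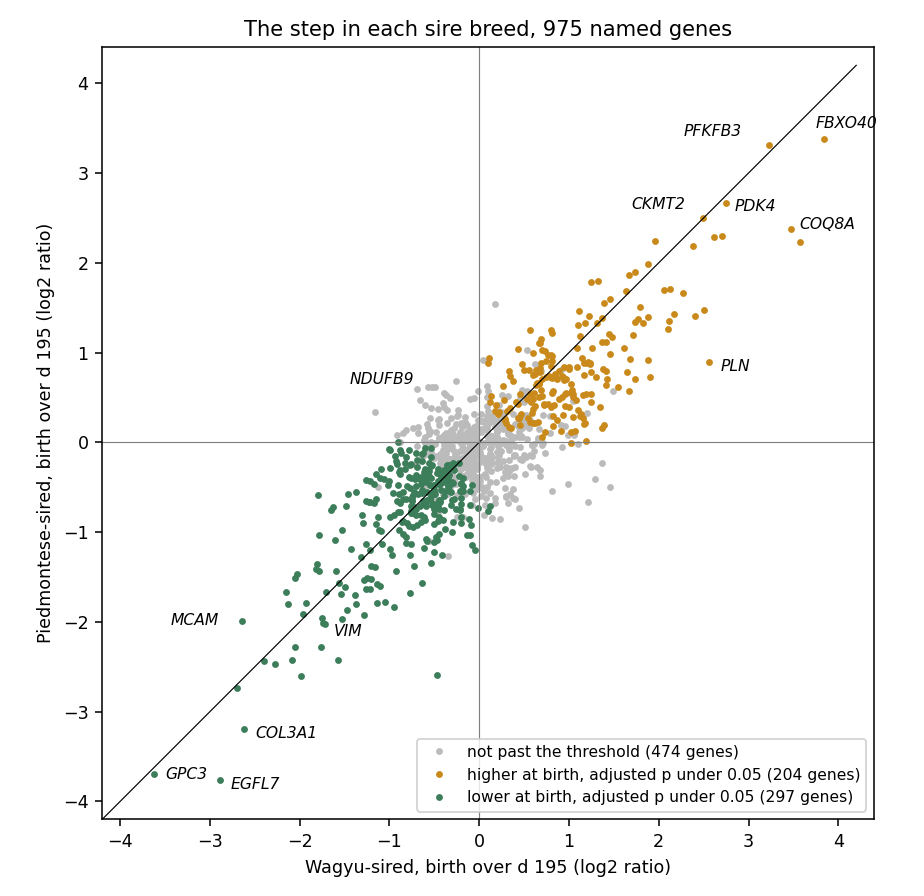
Log2 ratio of birth over d 195 in Wagyu-sired (horizontal axis) and Piedmontese-sired muscle (vertical axis) for 975 named genes, coloured by the test of the mean of both sire breeds, with the line of equal change. Genes with large changes lie near the line in the lower left and upper right, PLN lies to the right of it, and NDUFB9 lies in the upper left.

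No feature passed the test of the difference between sire breeds (0.0% of 16659, limma), although 2900 had an unadjusted p under 0.05. The smallest adjusted p was 0.0598 over all features and 0.0656 among named genes. The median standard error of this difference was 0.28 over named genes. Within these 6 arrays sire breed and dye orientation coincide, and the difference rests on the dye term taken from the other arrays of the loop. It also depended on a single array, since without Wagyu-sired array 3 the difference passed for 1200 features, 667 higher and 533 lower in Piedmontese-sired muscle, with 35 named genes higher and 52 lower.

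The named genes with the smallest p are given as values. NDUFB9, a subunit of complex I, read 0.41, 0.66 and 0.84 in Piedmontese-sired and -0.50, -0.63 and -0.31 in Wagyu-sired samples. SLIRP, which stabilises mitochondrial messenger RNA, read 0.49, 0.41 and 0.44 in the former and -0.51, -0.65 and -0.66 in the latter. For both genes each sire breed lay on its own side of 0. COX5B, a subunit of cytochrome c oxidase, read 0.67, 0.32 and 0.47 against -0.48, -0.93 and 0.11, so that only Wagyu-sired array 3 shared the sign of the Piedmontese-sired arrays, and the sire breeds still did not overlap.

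IGFBP4, a binding protein of insulin-like growth factors, was lower at birth on all 6 arrays, at -0.45, -0.25 and -0.94 in Piedmontese-sired and -1.71, -2.06 and -1.76 in Wagyu-sired samples. The fall was deeper in every Wagyu-sired sample, and the difference, Piedmontese-sired minus Wagyu-sired, was 1.20 ± 0.26 (unadjusted p = 0.000176, limma adjusted p = 0.0799). IDH1, the cytosolic isocitrate dehydrogenase, read -0.91, -0.76 and -0.45 in Piedmontese-sired and 0.31, 0.26 and -0.22 in Wagyu-sired samples. These did not overlap either, and the difference was -0.83 ± 0.17 (limma adjusted p = 0.0656). ADD3, which links spectrin to actin, read -1.33, -0.93 and -1.37 against 0.51, -0.48 and -0.14. KRCC1 and EXOSC2, a subunit of the RNA exosome, had differences of -0.72 ± 0.17 and -1.87 ± 0.45.

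Genes of the respiratory chain and the ribosome leaned towards a higher step in Piedmontese-sired muscle. Of the 32 respiratory chain genes 10 rose and 1 fell in Piedmontese-sired muscle, against 9 and 14 in Wagyu-sired muscle, and the step was higher in Piedmontese-sired muscle for 24, with 42.8% of all named genes doing so. At an unadjusted p under 0.05 the difference favoured Piedmontese-sired muscle for 15 and Wagyu-sired muscle for 1. Of the 49 ribosomal genes 46 had the higher step in Piedmontese-sired muscle. The difference reached an unadjusted p under 0.05 for 23 of the 49, each with the higher step in Piedmontese-sired muscle, and for 20% of named genes in either direction. Ribosomal genes fell for 9 of 49 in Piedmontese-sired and 38 of 49 in Wagyu-sired muscle, beside 23.2% and 25.2% of named genes. The Piedmontese-sired count lies near its share and is not read as a result about these genes. None of these differences passed after adjustment.

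Single arrays gave the following list medians. The median of the complex I list was 0.23, 0.06 and 0.33 on the Piedmontese-sired arrays and -0.51, -0.66 and -0.23 on the Wagyu-sired arrays. For cytochrome c oxidase the medians were 0.37, 0.32 and 0.47 against -0.54, -0.76 and 0.31. Wagyu-sired array 3 thus lay with the Piedmontese-sired arrays for cytochrome c oxidase and the ribosome, and between the groups for complex I. Without Wagyu-sired array 1 the ribosomal falls in Wagyu-sired muscle numbered 20 and without array 2 they numbered 23, and the falls among complex I genes were 2 in place of 5 without either array, 2 without Piedmontese-sired array 1 and 3 without Piedmontese-sired array 2. In Piedmontese-sired muscle the ribosomal falls numbered 4 without array 1 and 2 without array 3. With Wagyu-sired array 3 left out, the difference passed for 13 ribosomal, 3 complex I and 3 cytochrome c oxidase genes, all higher in Piedmontese-sired muscle. Of 975 named genes 35 were higher and 52 lower in that fit. Leaving out the Wagyu-sired array that lay with the other sire breed widens the difference by that choice, so these counts are a description. Without Wagyu-sired array 1 or array 2 the difference passed for 0 features.

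**Figure D5:**
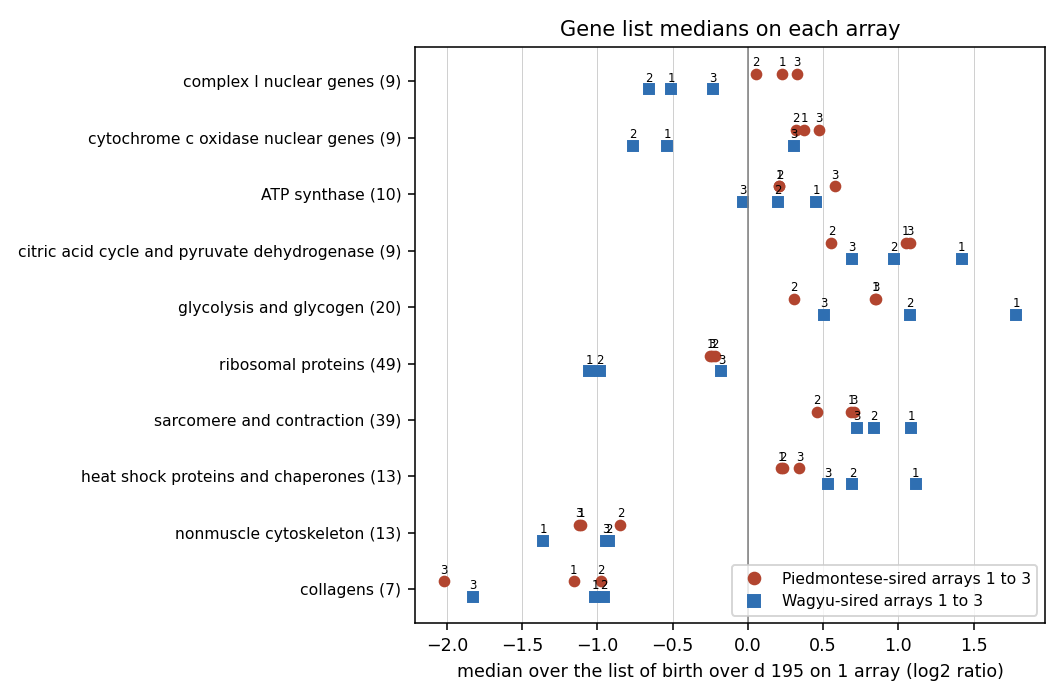
Median log2 ratio of birth over d 195 over the members of 10 gene lists (number measured in brackets) on each single array, with red circles for Piedmontese-sired and blue squares for Wagyu-sired arrays, numbered as in the labels. For ribosomal and cytochrome c oxidase genes Wagyu-sired arrays 1 and 2 lie to the left of the other 4 arrays, and the collagen medians of array 3 lie lowest in both sire breeds.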

How the data were processed

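Values were log2 ratios (Cy5 over Cy3) that the authors deposited, made by scanning and quantification on a GenePix system, with no single-channel intensities used here. Per the labels and methods, animals were fetal and newborn cattle, each on at least 2 arrays. Ratios at the cap of the scale (log2 of 16.6 or more) were set to missing, and the median of each array was then subtracted. Array elements of 1 gene name were averaged (4490 elements, 976 genes), and 1994 pairs of elements with the same sequence record correlated at 0.893. Another 188 elements had several names and 16490 had none. A feature had to be present on 20 or more of the 25 arrays, and 1 was dropped because its loop was broken. Another 45 columns of values were not used.

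All 25 arrays were fitted with limma 3.58.1 (R 4.3.3), with group effects and a dye term, no block, and Benjamini-Hochberg adjustment over all features at 0.05. The script was tested on simulated data. Members and gene lists were chosen with earlier results of these data known. Named genes were the 15 largest rises and falls, the smallest p of the sire breed difference, the leading members and exceptions of each list, and markers; other list members, such as IGF2, DDIT4, COL4A1, MDH2 and MYL1, were named after their values were seen. Alternatives covered centring, scaling, missing and capped values, dye term, array weights, replicate block, element averaging, robust moderation and leaving out arrays. Gene names come from the platform annotation and can be old. Sequences were not used here.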

Additional observations from a re-analysis of the deposited data

Results flagged for a closer look

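The steps of NDUFB9 and SLIRP differed between the sire breeds in sign on every array, all 3 Piedmontese-sired arrays lying above 0 and all 3 Wagyu-sired arrays below. For NDUFB9 the step in Piedmontese-sired minus that in Wagyu-sired muscle was 0.94 on the log2 scale (unadjusted p = 0.000183, limma adjusted p = 0.0799). For SLIRP it was 0.91 (unadjusted p = 0.000237, limma adjusted p = 0.0859). Neither difference passed after adjustment. Of 943 named genes with a value on each array, 19 had this pattern and 6 the opposite one, and over 15606 features the numbers were 173 and 166. The pattern was looked for among the named genes that the text describes, and sire breed and dye orientation cannot be told apart within these arrays.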

How the results depend on the processing

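The mean of both sire breeds had between 5914 and 8750 features past the threshold under the alternatives tried, against 8744 of 16659, and 10897 of 20052 with every element its own feature. Leaving out arrays gave 6873 to 8783. With capped ratios kept, 19 of the features called changed sign. In Piedmontese-sired muscle the number fell from 6609 to 3192 with the 6 arrays alone and no dye term, and leaving out arrays gave 4367 to 6815, the lowest without all arrays numbered 3. In Wagyu-sired muscle it fell from 7436 to 3430 with arrays scaled to the same spread, and leaving out arrays gave 5286 to 7498. The comparison with the step before fell from 5781 to 3465 with that scaling, and leaving out arrays gave 3964 to 6307. The cause was not tested. The difference between sire breeds, with 0 features past the threshold, had 25 with features on all 25 arrays, 13 with capped ratios kept, 12 with every element its own feature and 390 with array weights (195 in each direction). Leaving out arrays gave 0 to 1200, with 5 without Piedmontese-sired array 3 and 1200 without Wagyu-sired array 3.

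Without centring, the median of all features in Wagyu-sired muscle moved from -0.01 to -0.13, and 2453 features were higher and 4031 lower, against 3622 and 3814. In the mean of both sire breeds 3614 were then higher and 4243 lower, against 4445 and 4299. Fits with the array number as a replicate block gave 8517 features for the mean, 6277 for Piedmontese-sired and 7044 for Wagyu-sired muscle, 5083 for the comparison with the step before and 0 for the difference, and changed no count by more than 1.5 times. Whether the numbers pair samples was not settled, since same-numbered arrays of the sire breeds hold different animals. Deviations of these arrays correlated at 0.244, -0.004 and 0.072 in Cy5 over Cy3, and with the opposite sign in birth over d 195. Pairing within a sire breed was not examined.

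Among 197 named genes under 20 settings, 3742 of 3929 values for the mean kept their side of the threshold without a called reversal (39 that passed in neither fit changed sign), 177 lost the call, 9 gained it and 1 reversed, PLS3, which read 2.10 with capped ratios kept. PLS3 lost its call in 12 settings. In Piedmontese-sired muscle 299 values lost and 45 gained the call, in Wagyu-sired muscle 282 and 31, and for the difference 36 gained it. The fit with every element its own feature gave no value per gene, and the 6 arrays alone gave none for the comparison with the step before. With arrays scaled to the same spread, falls numbered 3 in place of 6 for cathepsins, antioxidant and adipocyte genes, and rises 5 in place of 8 for heat shock proteins, 4 in place of 7 for mitochondrial carriers and 2 in place of 4 for proteasome genes. Ratios of 3 arrays a sire breed limit the precision, and no depth or background signal could be examined.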

Other observations

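Some further groups were measured. Of 10 translation factors 3 rose and none fell from d 195 to birth, EIF3I by 0.63, and 1 rose in the fit of the 6 arrays alone. Of 9 proteins of the mitochondrial ribosome 4 rose, MRPL39 by 0.88, and 2 fell, with 2 rises when any of 3 arrays was left out. Of 13 mitochondrial carriers and porins 7 rose and 1 fell, and without Wagyu-sired array 1 the rises numbered 4. The phosphate carrier SLC25A3 rose by 1.06 and the porin VDAC1 by 0.60. Of 5 immediate early genes MCL1 and FOS rose, FOS by 0.67, and the call of MCL1 was lost in 5 of 20 alternative fits. Of 11 genes of oxygen sensing and nuclear receptors 4 fell and none rose, beside 30.5% of all named genes that fell. Without Piedmontese-sired array 3 there were 2 falls, and without Wagyu-sired array 3 there were 2 falls and 1 rise.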
